A study of Mus musculus with 69 samples.

Results

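The genes of cholesterol synthesis and sterol homeostasis were followed in cultured murine vascular cells exposed to obesity-associated stressors. The members are the rows of the deposited count tables whose Ensembl identifier belongs to a fixed list of gene symbols, 28 of 56953 genes. They comprise 8 enzymes of the mevalonate and isoprenoid pathway, 12 enzymes from squalene to cholesterol, SREBP2 with 3 of its regulators, and 4 genes of sterol transport and storage. All 28 passed the filter on low counts in every comparison. They were taken by symbol, although the list was drawn up with earlier results of these data known.

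Cells build cholesterol from acetyl-CoA. The mevalonate pathway yields isoprenoid units, which are joined to squalene, and squalene is closed to a ring and trimmed step by step to cholesterol. Transcription of most of these enzymes is driven by SREBP2, a membrane-bound transcription factor that is escorted by SCAP to the Golgi apparatus when sterols in the endoplasmic reticulum are low, and is held back by the INSIG proteins when sterols are high. In vascular smooth muscle the pathway supplies membranes of dividing cells and precursors for lipid-modified proteins.

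RNA-Seq of poly(A) RNA was available for 69 libraries of primary cells from male C57BL/6 mice whose age is not given. Wild-type vascular smooth muscle cells (WT VSMC) came from thoracic and abdominal aorta, KO VSMC from mice with floxed Egfr alleles and Cre recombinase driven by the smooth muscle promoter SM22, and endothelial cells (EC), which the sample titles label as WT, from the heart after selection for CD31. For 24 h the cells were kept as Control, or received 20 mM glucose with free fatty acids (HG + FFA; the labels state 100 µM, the study's methods this concentration for each of oleate and palmitate), 30 nM angiotensin II with 300 nM epinephrine (AII + NA; named norepinephrine in the study's methods), or all of these together (ALL). Albumin free of fatty acids was in every solution, and the VSMC were without serum before and during the exposure, so these are properties all groups of VSMC share. Sets 1 to 4 were WT VSMC, sets 5 to 8 KO VSMC and sets 9 to 18 EC, each set holding cells of 1 animal and passage treated together. Not analysed here were 3 libraries: ALL of set 5, Control of set 10 and AII + NA of set 15. The 10 EC sets came from 9 animals, as sets 17 and 18 shared an animal, and EC sets 15 and 16 were from animals that also gave KO VSMC. EC sets 9 and 10 were from the animals of WT VSMC sets 1 and 2, which the comparisons of EC with WT VSMC treated as separate sets. All VSMC are labelled as batch B1 and all EC as batch B2, so that cell type, organ and batch cannot be told apart.

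Libraries held 23626664 to 37801299 counts in WT VSMC, 23238979 to 35120866 in KO VSMC and 17166133 to 43240489 in EC. Expression is given below as FPM, the count divided by the library size in megareads after TMM scaling. The targeted gene Egfr had a mean of 246 to 430 FPM in the WT VSMC sets, 0.959 to 1.84 FPM in KO VSMC sets 6 to 8, and 36.5 FPM in KO VSMC set 5, which kept more transcript than the other KO sets. Pecam1, which encodes CD31, had a mean of 260 to 1590 FPM in 7 EC sets but 25.7, 42.4 and 18.1 FPM in EC sets 9, 11 and 13, and at most 13 FPM in any set of VSMC. The contractile marker Acta2 was at 598 FPM or more in each WT VSMC set and Myh11, a marker of the contractile state, at 10.8 FPM or less. Acta2 did not separate the cell types. It ranged from 166 to 3190 FPM in the EC sets, and EC sets 11 and 13 (3190 and 2820 FPM) lay above every WT VSMC set. Of 7 smooth muscle genes tested between EC and WT VSMC Control, edgeR and DESeq2 called none (median log2FC -0.45). There edgeR called 6.70% of all genes higher and 5.35% lower. In such bulk samples, fewer cells of a type and less RNA per cell cannot be told apart.

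Promoter windows, which run from 250 bases before to 50 bases after a gene's start, were available from RefSeq (table build GRCm38.p6) for 23 of the 28 members. They were searched on both strands for the core of the sterol regulatory element (TCAC and CCAC with any base between), which SREBP binds, the E-box CACGTG, which basic helix-loop-helix factors bind, and the CCAAT box, which NF-Y binds beside SREBP. The CCAAT box was present in 21 of 23 members, or 91.3%, and in 41.1% of the 27025 genes with a window. The E-box was found in Dhcr7, Hsd17b7, Insig1, Sc5d and Scap, 5 of 23 members or 21.7%, and in 8.09% of all genes. The core element was found in Hmgcs1 alone, 1 of 23 or 4.35%, and in 1.44% of all genes. A match describes letters in the window and no more. The sequences shown are those of Hmgcs1, the only member with the core element, and of those members called higher under ALL stressors in WT VSMC below, with a single window, that hold a match within at least 100 bases outside annotated UTRs. They lie in GRCm39 at chr13:120151637-120151886 (plus strand) for Hmgcs1, chr1:169796814-169797024 (minus) for Hsd17b7, chr9:42175606-42175846 (minus) for Sc5d, chr15:82031220-82031381 (plus) for Srebf2 and chr5:28276160-28276314 (plus) for Insig1. Each begins 250 bases before the RefSeq start and ends ahead of the first annotated UTR base, and capitals mark the matches, CCAAT on the other strand reading ATTGG.
Hmgcs1: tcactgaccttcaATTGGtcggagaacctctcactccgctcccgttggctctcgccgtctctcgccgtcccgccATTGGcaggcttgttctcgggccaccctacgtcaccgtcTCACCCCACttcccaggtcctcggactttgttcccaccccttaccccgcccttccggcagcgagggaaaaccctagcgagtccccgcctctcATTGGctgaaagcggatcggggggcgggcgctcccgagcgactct
Hsd17b7: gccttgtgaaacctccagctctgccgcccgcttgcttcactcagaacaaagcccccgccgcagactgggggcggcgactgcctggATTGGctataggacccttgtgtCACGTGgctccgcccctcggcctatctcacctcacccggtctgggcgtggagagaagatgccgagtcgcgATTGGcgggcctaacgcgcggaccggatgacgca
Sc5d: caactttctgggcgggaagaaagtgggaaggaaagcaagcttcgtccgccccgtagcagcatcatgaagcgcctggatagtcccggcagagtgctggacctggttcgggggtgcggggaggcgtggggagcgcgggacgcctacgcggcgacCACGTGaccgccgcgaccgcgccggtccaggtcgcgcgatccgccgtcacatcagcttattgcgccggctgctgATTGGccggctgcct
Srebf2: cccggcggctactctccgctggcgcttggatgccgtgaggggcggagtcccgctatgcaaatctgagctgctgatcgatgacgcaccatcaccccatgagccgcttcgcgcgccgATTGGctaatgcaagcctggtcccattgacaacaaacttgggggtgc
Insig1: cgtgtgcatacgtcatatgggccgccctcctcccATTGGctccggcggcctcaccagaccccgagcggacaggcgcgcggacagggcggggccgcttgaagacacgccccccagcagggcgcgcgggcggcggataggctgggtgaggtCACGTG
In Hmgcs1 the core element, TCACCCCAC, begins 137 bases before the start and stands between CCAAT boxes. Hsd17b7 holds an E-box between a pair of CCAAT boxes, Sc5d an E-box upstream of a CCAAT box, Insig1 a CCAAT box upstream of an E-box, and Srebf2 a single CCAAT box. Hsd17b7, Sc5d, Srebf2 and Insig1 are shown because they were called in WT VSMC under ALL stressors, and Hmgcs1 because of its core element. The choice of these 5 sequences therefore says nothing on motif and response. Hmgcs1 itself was not called (log2FC 0.33 ± 0.16 (SE), edgeR FDR 0.257).

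First, the levels in Control cells were compared per length of exon (FPKM). The lysosomal sterol carrier Npc2 had the highest mean of the 28 genes in each cell type, with 108 FPKM in WT VSMC, 112 FPKM in KO VSMC and 65.2 FPKM in EC. Scap, the SREBP escort, had means of 12.8, 11 and 8.14 FPKM. At the low end in WT VSMC stood Stard4, a cytosolic sterol carrier, with 0.951 FPKM, and Lbr, a sterol reductase that is also a nuclear lamina protein, with 1.04 FPKM.

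**Figure D1:**
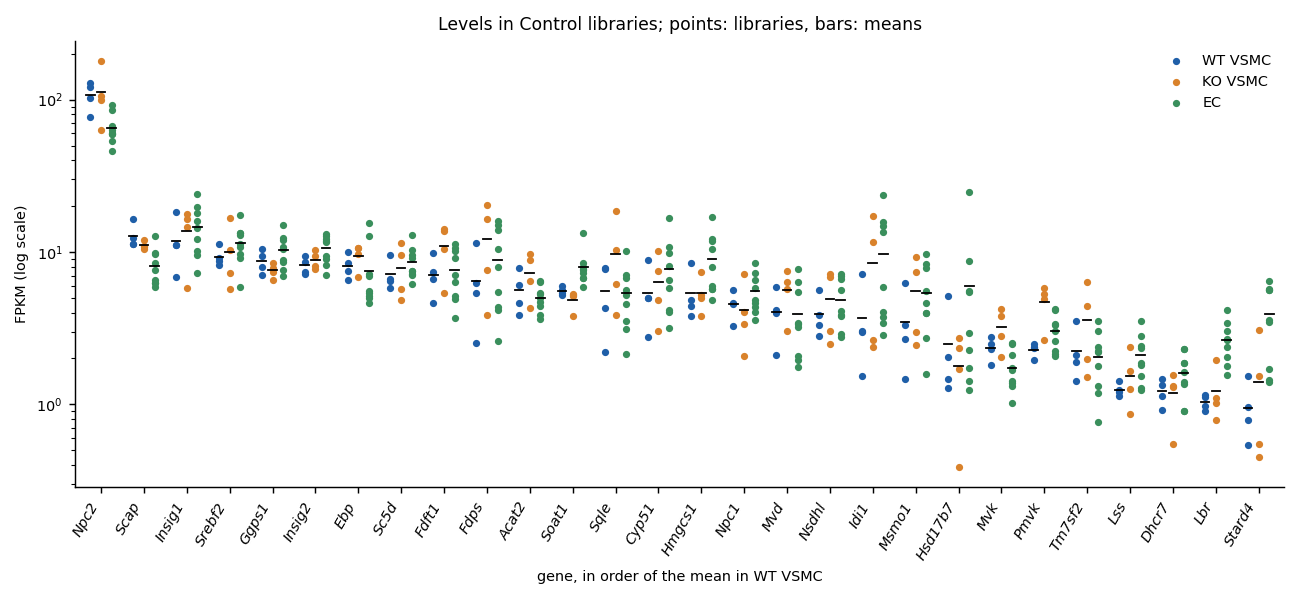
Levels of the 28 genes in Control libraries as FPKM on a log axis, ordered by the mean in WT VSMC, with a point per library (WT VSMC n = 4, KO VSMC n = 4, EC n = 9) and a bar at each mean. Npc2 is at the top at 108 FPKM in WT VSMC, and Stard4 shows the widest step from WT VSMC (0.951 FPKM) to EC (3.89 FPKM).

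KO and WT VSMC Control cells did not differ in any member at an FDR under 0.05 in edgeR. At an unadjusted p under 0.05, 1 member was higher and none lower, where 6.90% of all genes were higher. DESeq2 called 1 member (Pmvk) and 343 of all 16089 genes tested, and edgeR called 0.00622% of them. The median log2FC of KO against WT was 0.22 over the members and -0.00 over all genes. The widest estimates were Idi1, isopentenyl-diphosphate isomerase, at 1.18 (edgeR FDR 0.474), and Pmvk, phosphomevalonate kinase, at 1.02 ± 0.25 (SE, edgeR FDR 0.294). Pmvk was at 9.46, 9.12, 8.96 and 7.44 FPM in WT VSMC sets 1 to 4 and at 10.1, 20.3, 22.3 and 18.8 FPM in KO VSMC sets 5 to 8. Its values did not overlap between genotypes, set 5 being nearest to the WT sets. Set 5 also stood apart from KO sets 6 to 8 in some markers of cell state: the contractile gene Myh11 had a mean of 239 FPM against 2.75 to 7.62 FPM, Cnn1 381 FPM against 9.73 to 63.1 FPM, and the collagen gene Col1a1 4430 FPM against 971 to 1500 FPM. Of the other smooth muscle genes, Acta2, Tagln and Lmod1 were also above the range of KO sets 6 to 8. Smtn (97.3 against 64.1 to 119 FPM), Des and Myocd lay within that range. Without set 5, edgeR called Pmvk at a log2FC of 1.22, and the share of all genes called in that fit was not determined. Between KO and WT Control cells edgeR called no gene of the smooth muscle, proliferation or fibroblast marker lists, and DESeq2 called 2 fibroblast genes. At an unadjusted p under 0.05, 6 of 7 smooth muscle genes tested (median log2FC 1.19) and 5 of 10 proliferation genes (median 1.55) were higher and 3 of 5 fibroblast genes (median -1.66) lower, where 5.27% of all genes were lower. The part of these markers in the values of Pmvk was not tested.

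EC differed from WT VSMC Control cells in 3 members, 2 higher and 1 lower, where 6.70% of all 17115 genes were higher and 5.35% lower. Lbr was higher in EC by a log2FC of 1.36 (edgeR FDR 0.00598), with 10.6 to 13.5 FPM in WT VSMC and 18.3, 30.9 and 48.7 FPM as the lowest, median and highest EC library. Stard4 was higher by 2.04 (edgeR FDR 0.0193), with 3.29 to 9.34 FPM in WT VSMC and 8.57, 21.9 and 39.5 FPM in EC. Npc2 was lower by a log2FC of -0.71 (edgeR FDR 0.0361), with 473 to 790 FPM in WT VSMC and 281, 369 and 567 FPM in EC. The groups did not overlap for Lbr, whereas they did for Stard4 and Npc2. The EC sets low in Pecam1 were also the lowest EC sets for both genes that were higher: Stard4 stood at 10.4, 8.57 and 8.89 FPM in Control libraries of sets 9, 11 and 13 and at 21.3 FPM or more in the others, and Lbr at 23.7, 20.9 and 18.3 FPM against 27.6 FPM or more. The part of these sets' cell composition in the difference was not tested. With these sets left out, 7 members were higher and 2 lower, but so were 15% and 13.5% of all 16827 genes. Without EC sets 9 and 10, which share animals with WT VSMC, Lbr and Stard4 were called and Npc2 was not (log2FC -0.70, edgeR FDR 0.0519).

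The main comparison asked how the members answer to the combination of stressors in WT VSMC. Under ALL stressors 15 of 28 members, or 53.6%, were higher and none was lower at an FDR under 0.05 in edgeR, whereas 3.92% of all 16905 genes tested were higher. DESeq2 called 17 members higher, where it called 5.35% of all genes higher. The median log2FC was 0.53 over the members and -0.01 over all genes, and 25 of 28 estimates were above 0. Counted by role, 5 of 8 mevalonate and isoprenoid enzymes rose (median 0.54 over the 8), 7 of 12 enzymes from squalene to cholesterol (0.55), 2 of 4 in the group of SREBP2 and its regulators (0.22) and 1 of 4 transport and storage genes (0.18). With the study's additional limits of a log2FC of at least 0.64 and significance in both tools, 6 were left, Mvd, Fdps, Sqle, Cyp51, Msmo1 and Stard4, where 1.24% of all genes met these limits in the higher direction.

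The mevalonate and isoprenoid enzymes that rose were Mvk, Pmvk, Mvd, Idi1 and Fdps. Fdps, farnesyl diphosphate synthase, which joins isoprenoid units to the branch point of sterols and protein prenylation, was at 56.4, 26.1, 30.5 and 12.3 FPM in Control sets 1 to 4 and at 104, 66.9, 74.7 and 22.1 FPM under ALL. Each set rose, although set 4 under ALL remained below the Control library of set 1 and the groups overlapped. The log2FC was 1.11 ± 0.24 (SE, edgeR FDR 0.0105), a 2.16-fold increase and the highest estimate of the 28. Mvd, mevalonate diphosphate decarboxylase, was at 16.1, 11.4, 10.8 and 5.71 FPM in Control and at 27.6, 21.9, 19.7 and 9.77 FPM under ALL. Set 4 was again the lowest in both conditions, while the other sets under ALL lay above every Control library. Its log2FC was 0.85 ± 0.17 (SE, edgeR FDR 0.00749). Pmvk rose from the Control values given above to 11.8, 16.1, 13.1 and 9.67 FPM. The groups of Pmvk did not overlap, set 4 under ALL standing just above the highest Control library. Its log2FC was 0.53 ± 0.14 (SE, edgeR FDR 0.0319). Idi1 rose by a log2FC of 1.07 ± 0.30 (SE, edgeR FDR 0.0434) and Mvk, mevalonate kinase, by 0.43 ± 0.12 (SE, edgeR FDR 0.0362), each in 4 of 4 sets. The first enzymes of the pathway did not pass the test: Acat2, acetoacetyl-CoA thiolase, had a log2FC of 0.54 (edgeR FDR 0.0567) and Hmgcs1, the synthase of HMG-CoA, one of 0.33. Ggps1, geranylgeranyl diphosphate synthase, which leads out of the sterol branch, had a log2FC of -0.09.

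Among the enzymes from squalene on, Sqle, squalene epoxidase, a rate-limiting step of the sterol branch, had the smallest FDR of all members. The gene lies at chr15:59186869-59203043 (GRCm39). It was at 69.3, 38.3, 69.0 and 19.7 FPM in Control, 84.6, 48.8, 95.2 and 25 FPM under HG + FFA, 85.0, 54.5, 86.3 and 36.3 FPM under AII + NA and 101, 73.4, 117 and 50.3 FPM under ALL. In every set the order was Control below either single exposure below ALL, while the ranges of Control and ALL overlapped because of the distance between sets. The log2FC under ALL was 0.89 ± 0.11 (SE, edgeR FDR 0.000436), or 1.85-fold. Fdft1, squalene synthase, was at 46.8, 31.7, 35.3 and 22.0 FPM in Control and 68.0, 52.8, 61.6 and 26.6 FPM under ALL. Each set rose, set 4 by the least, and its log2FC was 0.59 ± 0.15 (SE, edgeR FDR 0.0233). Cyp51, lanosterol demethylase, was at 52.6, 29.6, 29.8 and 16.3 FPM in Control and 81.8, 52.1, 57.2 and 19.5 FPM under ALL. The order of sets was kept, with set 1 highest and set 4 lowest, and the log2FC was 0.67 ± 0.15 (SE, edgeR FDR 0.0106).

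Msmo1, the methylsterol oxidase, was at 55.9, 24.0, 29.6 and 13.1 FPM in Control and at 82.3, 50.5, 67.8 and 21.0 FPM under ALL. It rose in each set, with a log2FC of 0.89 ± 0.22 (SE, edgeR FDR 0.0214). Sc5d, the sterol desaturase, was at 58.4, 35.6, 40.9 and 39.8 FPM in Control and 84.1, 55.8, 72.1 and 44.9 FPM under ALL. Set 4 rose by the least, and the log2FC was 0.53 ± 0.14 (SE, edgeR FDR 0.028). Tm7sf2, a sterol reductase, was at 17.4, 10.4, 9.25 and 6.94 FPM in Control and 20.2, 14.1, 18.1 and 10.2 FPM under ALL. The rise was widest in set 3, and the log2FC was 0.53 ± 0.14 (SE, edgeR FDR 0.0304). Hsd17b7, the keto-reductase of the demethylation complex, was at 26.3, 10.5, 7.54 and 6.54 FPM in Control and 43.9, 13.6, 15.6 and 6.51 FPM under ALL. It rose in 3 of 4 sets and stayed level in set 4, with a log2FC of 0.57 ± 0.14 (SE, edgeR FDR 0.023). Not past the threshold were Nsdhl (log2FC 0.65, edgeR FDR 0.0596), Lss (0.48, 0.113), Dhcr7 (0.43, 0.128), Ebp (0.19) and Lbr (0.07).

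**Figure D2:**
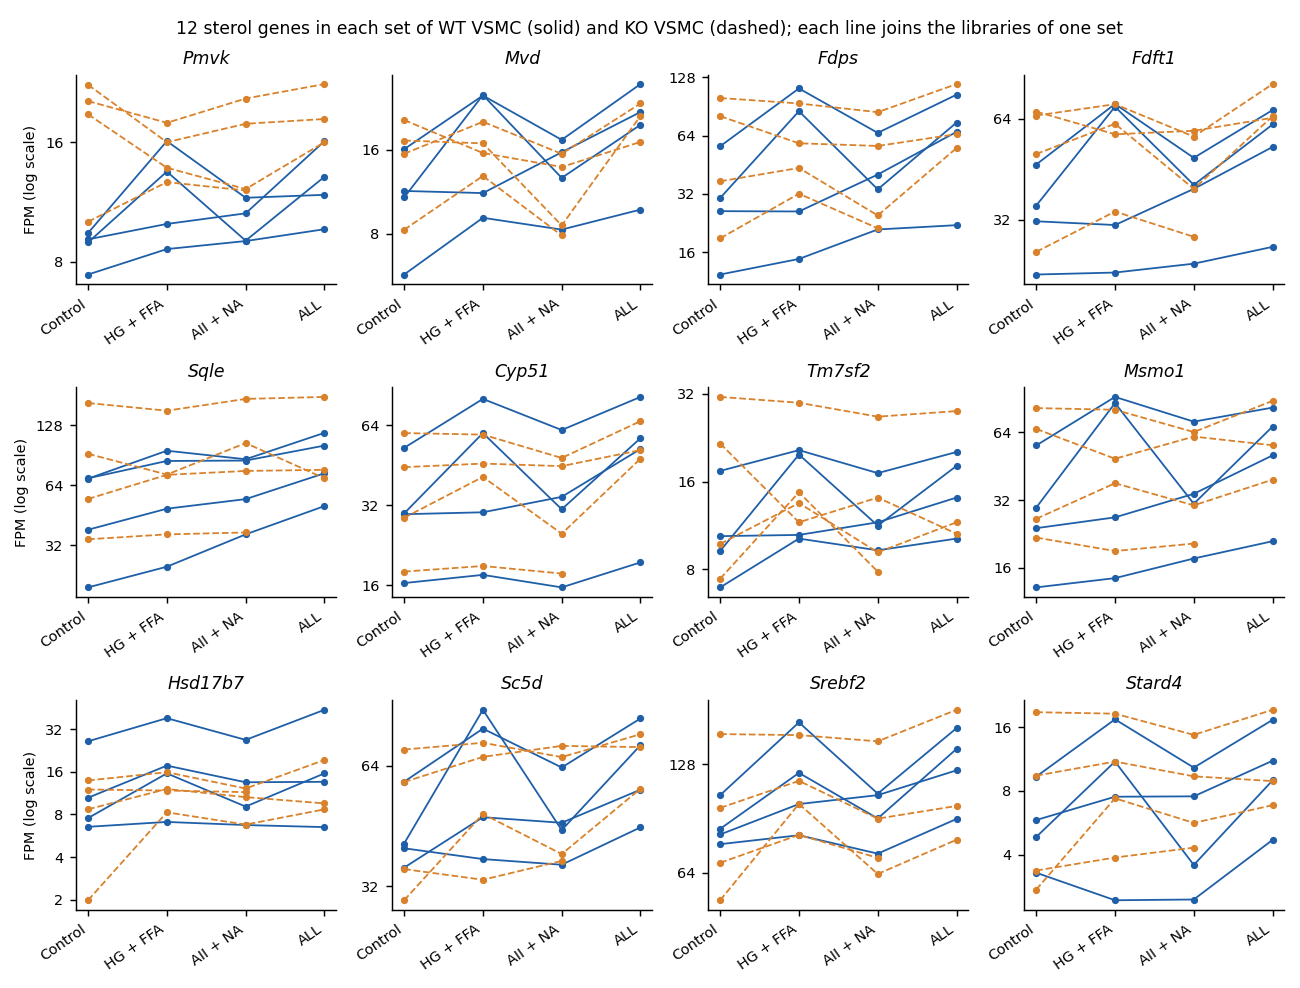
FPM on a log axis in each condition for the 12 members with the smallest FDR, with a line per set of WT VSMC (solid, sets 1 to 4) and KO VSMC (dashed, sets 5 to 8, set 5 without ALL). In WT VSMC the lines of Sqle end higher under ALL (50.3 to 117 FPM) than they begin in Control (19.7 to 69.3 FPM), while the KO lines of Sqle spread from 34.3 to 165 FPM in Control.

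Srebf2, which encodes SREBP2, was at 84.7, 81.7, 105 and 76.8 FPM in Control and 141, 123, 161 and 90.2 FPM under ALL. Sets 1 to 3 under ALL lay above every Control library, and set 4 lay within the range of the Control libraries. Its log2FC was 0.54 ± 0.10 (SE, edgeR FDR 0.00499). Insig1, which retains SCAP and is itself a target of SREBP2, rose by 0.38 ± 0.11 (SE, edgeR FDR 0.0476), in 3 of 4 sets. Insig2 had a log2FC of -0.16, the only member lower at an unadjusted p under 0.05, where 10.8% of all genes were lower, and Scap one of 0.05.

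Of the transport and storage genes, Stard4 rose from 9.34, 5.83, 4.85 and 3.29 FPM to 17.3, 11.1, 8.97 and 4.70 FPM. Each set rose, from levels that were low throughout, and the log2FC was 0.82 ± 0.21 (SE, edgeR FDR 0.0288). Npc1, the lysosomal sterol exporter, had a log2FC of 0.32 (edgeR FDR 0.0719), its partner Npc2 one of -0.04, and Soat1, which esterifies cholesterol for storage, one of 0.05.

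**Figure D3:**
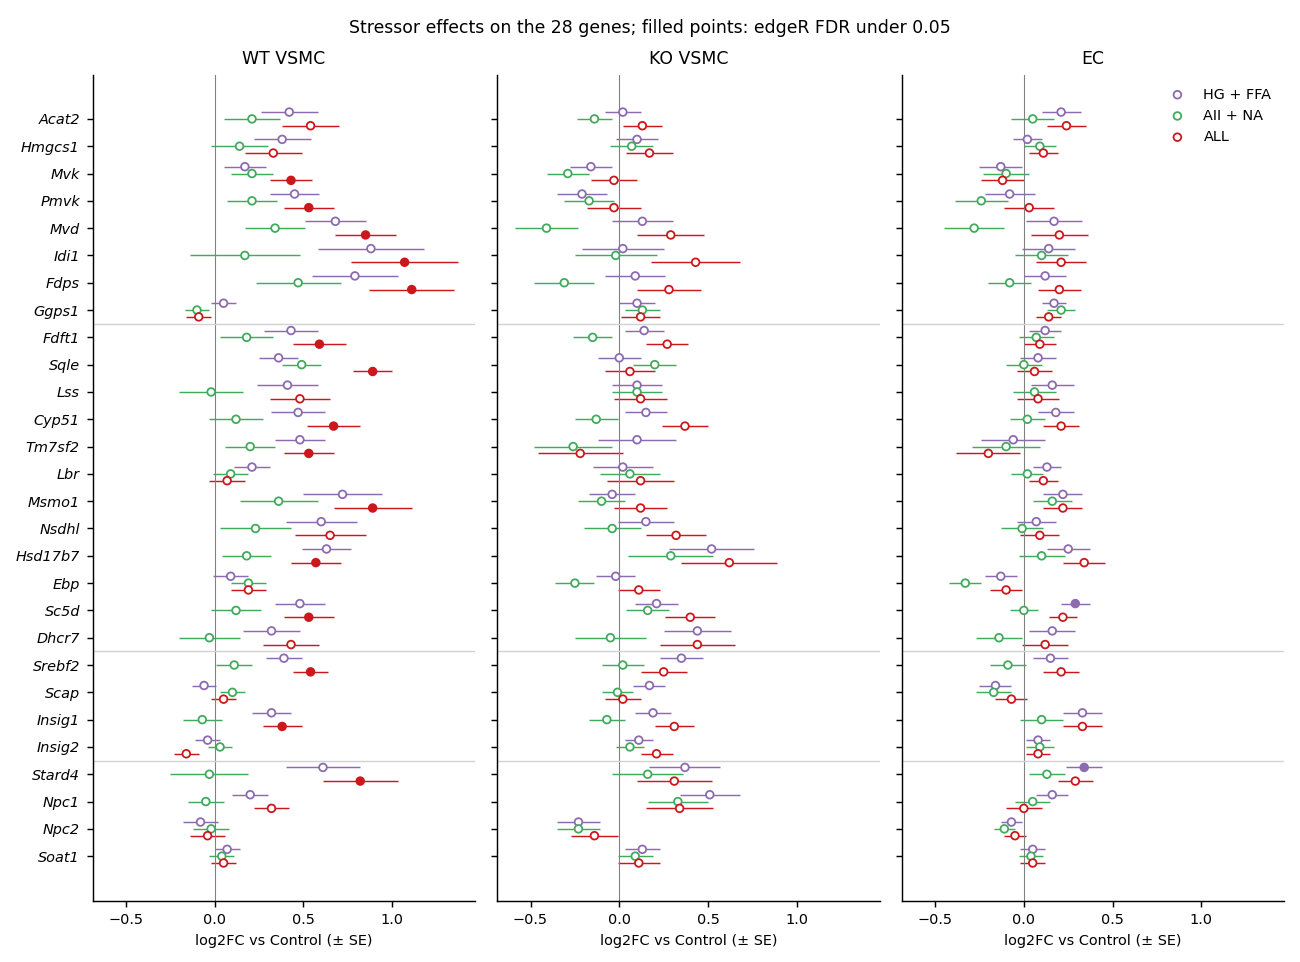
The log2FC against Control with its SE (horizontal bars) for each of the 28 genes under HG + FFA, AII + NA and ALL, in panels for WT VSMC, KO VSMC and EC, with filled points at an edgeR FDR under 0.05. Filled points are 15 under ALL in WT VSMC, none in KO VSMC and 2 under HG + FFA in EC.

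The 15 calls rested on the pairing of libraries. Without the set number as a block edgeR called 0 members and 0% of all genes higher, while the log2FC of the 15 members remained above 0, at 0.42 to 1.10. With a set left out, 9, 8, 9 and 10 of the 15 were still called (without sets 1, 2, 3 and 4), where 3.22%, 2.24%, 2.52% and 1.65% of all genes were higher. Cyp51, Fdps, Mvd, Sqle and Srebf2 were called in each of these 4 fits, 6 members (Fdft1, Hsd17b7, Msmo1, Mvk, Sc5d and Stard4) in 2 of them, and Idi1, Insig1, Pmvk and Tm7sf2 in 1. All 15 had a log2FC above 0 in every one of these fits, the lowest being Insig1 at 0.26. Some members share sequence with other genes, so that their counts are uncertain: 51.2% of the Acat2 transcript matches Acat3, 50.6% of Fdps matches Gm3571, 30.4% of Fdft1 matches Gm6781 and 22.6% of Idi1 matches Idi1-ps1, and 22.4% of Dhcr7 matches other genes, at an identity of at least 95% over at least 100 bases. Exons of another gene overlap 28.3% of the exonic bases of Cyp51, 24.8% of Fdft1 and 20.5% of Mvd.

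Under the single exposures no member of WT VSMC passed the threshold in edgeR. With HG + FFA 18 members were higher and none lower at an unadjusted p under 0.05, or 64.3%, whereas 5.29% of all genes were higher by that measure and 0.319% at an FDR under 0.05. The median log2FC was 0.40 over the members and -0.01 over all genes, with 25 of 28 estimates above 0. The smallest FDR was that of Hsd17b7 (log2FC 0.63, edgeR FDR 0.0657). DESeq2 called 4 members (Hsd17b7, Mvd, Sc5d and Srebf2) and 294 of all 16905 genes in either direction. Without the low-count filter edgeR called 18 members. The share of all genes called in that fit was not determined, so this count is not read as a result about the members. The sets differed: the median log2 ratio over the 28 genes was 0.52 in set 1 and 0.77 in set 3, but 0.10 in set 2 and 0.03 in set 4. Fdps showed this split, with 112, 26.0, 85.5 and 14.8 FPM under HG + FFA, 2 sets well above and 2 near their Control libraries. With AII + NA 1 member was higher and none lower at an unadjusted p under 0.05, where 4.97% of all genes were higher by that measure and 0.0473% at an FDR under 0.05. This was Sqle (log2FC 0.49 ± 0.11 (SE), edgeR FDR 0.133), higher in 4 of 4 sets. Sqle was the single member DESeq2 called, where DESeq2 called 169 of all 16905 genes in either direction. The median log2FC over the members was 0.13.

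**Figure D4:**
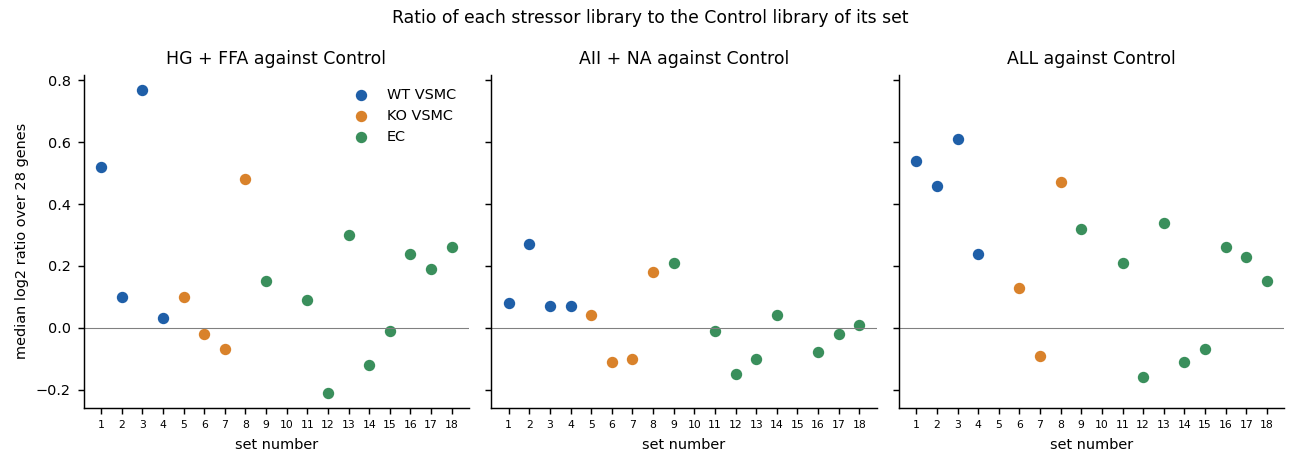
Median over the 28 genes of the log2 ratio of each stressor library to the Control library of its set, against the set number, in panels for HG + FFA, AII + NA and ALL. Under ALL the 4 WT VSMC sets lie at 0.54, 0.46, 0.61 and 0.24, KO VSMC sets 6 to 8 at 0.13, -0.09 and 0.47, and EC sets between -0.16 and 0.34.

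ALL stressors were then set against HG + FFA alone. No member differed at an FDR under 0.05 in edgeR, where 0.0296% of all genes were higher, and 2 were higher and none lower at an unadjusted p under 0.05, where 5.73% of all genes were higher. The median log2FC over the members was 0.10. Sqle had a log2FC of 0.53 ± 0.11 (SE, edgeR FDR 0.0966) and was the only member called by DESeq2, which called 224 of all 16905 genes in either direction. Departure from additivity, the log2FC of ALL less the sum of those of the single exposures, was called for no member and for no gene in edgeR or DESeq2. No member had an unadjusted p under 0.05, where 1.72% of all genes did, and the median over the members was -0.05. For Sqle the departure was 0.04 ± 0.16 (SE).

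In KO VSMC edgeR and DESeq2 called no member under any stressor. Under ALL, 6 members were higher and none lower at an unadjusted p under 0.05, or 21.4%, where 4.88% of all 17538 genes were higher by that measure and 0.279% at an FDR under 0.05. The median log2FC was 0.19, and the smallest FDR was 0.298. Under HG + FFA 3 members were higher and none lower at an unadjusted p under 0.05, or 10.7%, where 6.36% of all genes were higher, with a median of 0.11 (0.336% of all genes at an FDR under 0.05). Under AII + NA 3 members were lower and none higher at an unadjusted p under 0.05, where 5.83% of all genes were lower, with a median of -0.03, and edgeR called 0% of all genes. Sqle was at 34.3, 165, 91.9 and 54.6 FPM in Control libraries of sets 5 to 8 and at 177, 69.3 and 76.4 FPM under ALL in sets 6 to 8. The ALL library was above Control in sets 6 and 8 and below it in set 7, and the fitted log2FC was 0.06 ± 0.14 (SE, edgeR FDR 0.906). Set 8 carried the widest ratios: Hsd17b7 was at 1.98 FPM in its Control library against 8.70 to 13.9 FPM in the other KO sets, and at 8.69 FPM under ALL. Without set 5, which retained Egfr transcript, 1 member was called under HG + FFA, Npc1 at a log2FC of 0.76, and none under ALL.

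Whether the effect differed between the genotypes was tested directly, with a positive value where the log2FC was higher in WT than in KO VSMC. edgeR called no member for HG + FFA, AII + NA or ALL, 0% of all 18339 genes for HG + FFA and AII + NA, and 0.0109% for ALL in either direction. At an unadjusted p under 0.05 the effect of ALL was higher in WT VSMC for 6 members, or 21.4%, and lower for 1, where 4.20% of all genes were higher and 3.22% lower. The corresponding numbers were 5 higher and none lower for HG + FFA (1.33% of all genes higher) and 4 higher and none lower for AII + NA (6.93%). The median difference over the members was 0.30 for ALL, 0.27 for HG + FFA and 0.16 for AII + NA, and -0.00 over all genes for ALL. These comparisons with Control share their Control libraries. The narrowest miss was Sqle under ALL with a difference of 0.84 ± 0.18 (SE, edgeR FDR 0.144), which DESeq2 called. DESeq2 called 58 of all 18339 genes there in either direction. Power was limited in simulated data with 200 genes changed by 0.75. Of these, 32.0% were recovered in this comparison, against 70.0% under ALL in WT VSMC. Recovery depends on the number and size of the changes, and in the data 2 genes were called here and 1259 under ALL in WT VSMC. The median difference of the members was also below 0.75. These shares are therefore not the power for the members. The 15 calls in WT VSMC and none in KO VSMC are thus not shown to differ between the genotypes.

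In EC 2 members rose under HG + FFA, where 1.64% of all 17148 genes were higher, and none fell. Sc5d had 38.1, 46.1 and 79.9 FPM as the lowest, median and highest Control library and 35.0, 70.8 and 111 FPM under HG + FFA. It was higher in 8 of 9 sets with ranges that overlapped, and its log2FC was 0.29 ± 0.08 (SE, edgeR FDR 0.0257). Stard4 had 8.57, 21.9 and 39.5 FPM in Control and 11.9, 31.4 and 54.3 FPM under HG + FFA. It was also higher in 8 of 9 sets with overlapping ranges, and its log2FC was 0.34 ± 0.10 (SE, edgeR FDR 0.0419). Both calls were lost without the set block, with the animal as the block and without EC sets 9, 11 and 13. The median log2FC over the members was 0.14.

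Under ALL no member of EC was called by edgeR or DESeq2. At an unadjusted p under 0.05, 7 were higher and none lower, or 25%, where 6.83% of all genes were higher, and the median log2FC was 0.11 (1.14% of all genes were higher at an FDR under 0.05). Under AII + NA 1 member was higher and 1 lower at an unadjusted p under 0.05, where 2.75% of all genes were higher and 3.92% lower, and neither tool called a member or any other gene. ALL did not differ from HG + FFA in any member of EC or KO VSMC in either tool, with no member at an unadjusted p under 0.05, where 5.14% of all genes in EC and 2.91% in KO VSMC were. Sqle, the leading gene in WT VSMC, had 18.9, 46.6 and 90.8 FPM in EC Control and 20.1, 47.9 and 86.3 FPM under ALL, which overlapped almost fully. Its log2FC in EC was 0.06 ± 0.10 (SE, edgeR FDR 0.839). Srebf2 had 55.1, 105 and 163 FPM in Control and 103, 119 and 158 FPM under ALL, with a log2FC of 0.21 (edgeR FDR 0.289), and its ranges overlapped too. Fdps had 12.8, 39.1 and 78.3 FPM in Control and 24.4, 47.7 and 67.9 FPM under ALL. The lowest library was higher under ALL and the highest lower, and the log2FC was 0.20 (edgeR FDR 0.427).

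The effect of ALL in EC minus that in WT VSMC was lower for 1 member, Sqle, by -0.83 ± 0.17 (SE, edgeR FDR 0.00751), where 0.408% of all 19362 genes were lower. At an unadjusted p under 0.05 the difference was below 0 for 12 members, or 42.9%, and above 0 for 1, where 3.94% of all genes were below 0 and 2.54% above. The median difference over the members was -0.31. Fdps stood next, at -0.91 (edgeR FDR 0.0959). DESeq2 called both, and 180 of all 19362 genes in either direction. Both were also called by edgeR without EC sets 9, 11 and 13, with -1.01 for Sqle and -1.05 for Fdps. Without EC sets 9 and 10, whose animals also gave WT VSMC, Sqle was called at -0.86 (edgeR FDR 0.00916). The call of Sqle was lost without WT VSMC set 2 (-0.82, edgeR FDR 0.0708), without set 4 (-0.70, edgeR FDR 0.146) and without the set block (-0.72). For HG + FFA no member differed in either tool, with 6 members below 0 and none above at an unadjusted p under 0.05, where 1.24% of all genes were below 0 and no gene was called by edgeR.

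**Figure D5:**
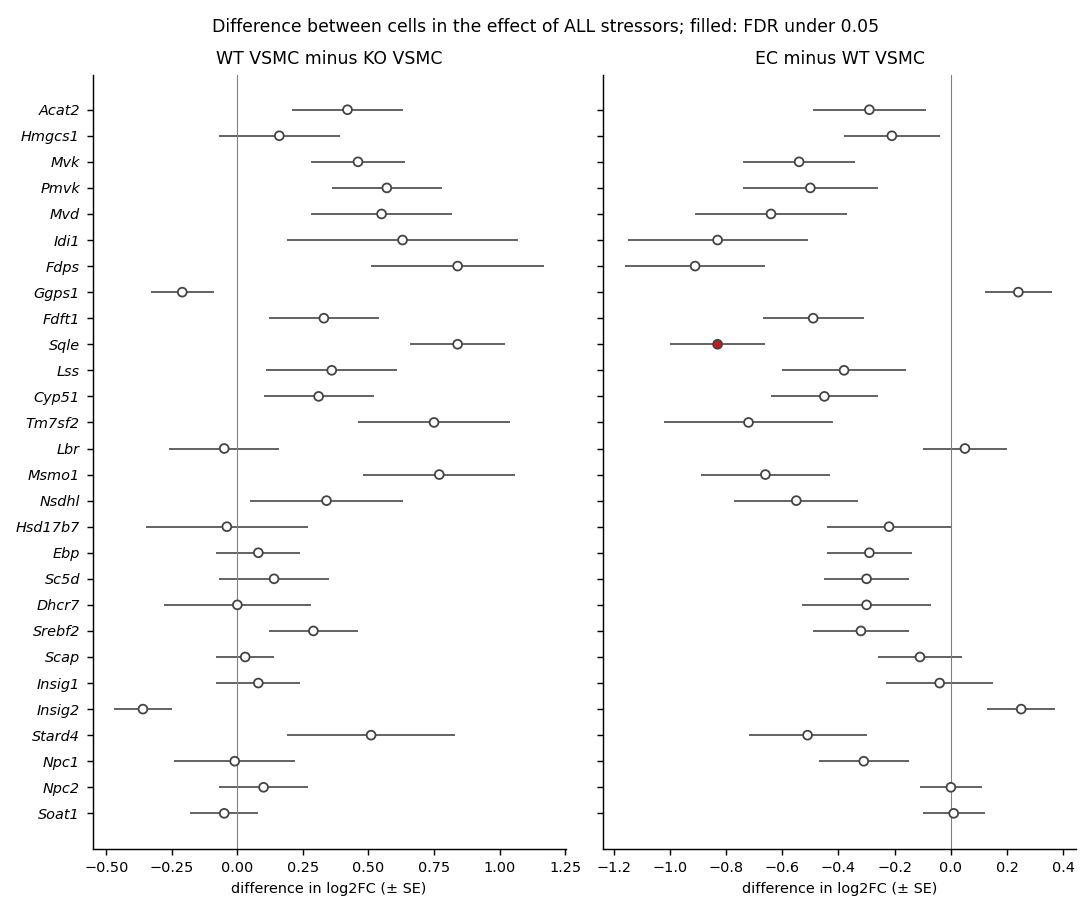
Difference in the log2FC of ALL stressors for each of the 28 genes, with its SE (horizontal bars), between WT VSMC and KO VSMC and between EC and WT VSMC, with filled points at an edgeR FDR under 0.05. Sqle of EC against WT VSMC, at -0.83, is the only filled point, and Sqle of WT against KO VSMC, at 0.84, is open.

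Neighbouring genes outside the 28 were counted from 3 lists. Of 10 genes of SREBP processing and sterol-regulated degradation, 1 was lower under ALL in each cell type, Mylip, a ubiquitin ligase induced by liver X receptors, where the share of all genes that were lower was 3.53% in WT VSMC, 0.120% in the KO cells and 2.04% in EC. Its log2FC was -0.92 in WT VSMC (edgeR FDR 0.00113), -0.94 in KO VSMC (edgeR FDR 0.0165) and -1.21 in EC (edgeR FDR 3.89e-09), while the medians of the list were -0.06, 0.09 and -0.04. Of 10 genes that use mevalonate outside sterols, none was called under ALL in any cell type by edgeR or DESeq2 (median -0.06 in WT VSMC), with 1 lower in KO VSMC and no other at an unadjusted p under 0.05, where 5.63% of all genes in KO VSMC were lower. Of 12 genes of intracellular sterol traffic, 1 was lower in WT VSMC under ALL, Gramd1b, an endoplasmic reticulum sterol carrier (log2FC -0.48, edgeR FDR 0.0402). Gramd1b was also lower in EC under ALL (-0.85, edgeR FDR 5.99e-05), and Scarb2, a lysosomal membrane protein, was higher under ALL in KO VSMC (0.77, edgeR FDR 0.0254) and EC (0.57, edgeR FDR 4.73e-05). Under ALL 0.279% of all genes in KO VSMC and 1.14% in EC were higher. Under HG + FFA alone Gramd1b was called in EC (-0.68) but not in WT VSMC, and Scarb2 in KO VSMC (0.75) and EC (0.59). Mylip was also lower under HG + FFA alone in WT VSMC (-0.89, edgeR FDR 0.00649), KO VSMC (-0.81, edgeR FDR 0.0147) and EC (-1.2, edgeR FDR 4.92e-09).

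Some marker genes of cell types and of proliferation were also called under the stressors. In WT VSMC under ALL, where 3.92% of all genes were higher and 3.53% lower, 6 of 10 proliferation genes were higher, with Mki67 at a log2FC of 1.30. The summed level of the list was 113 to 174 FPM in Control and 130 to 206 FPM under ALL. Of 8 smooth muscle genes 1 was higher (Tagln, 0.95), with sums of 352 to 1190 FPM in Control and 1080 to 1510 FPM under ALL. At an unadjusted p under 0.05, 4 of the 8 were higher under ALL and 4 under AII + NA, with a median log2FC of 0.73 in each. By that measure 4.97% of all genes were higher under AII + NA. Of 10 endothelial genes 2 were lower under ALL (Cdh5, -1.17, and Emcn, -1.57), with sums of 3.78 to 77.1 FPM in Control and 2.52 to 37.0 FPM under ALL. At an unadjusted p under 0.05, 6 of the 10 were lower (median -0.72), where 10.8% of all genes were lower. One of 5 fibroblast genes was lower (Col3a1, -0.68), with sums of 6140 to 19000 FPM in Control and 6560 to 11300 FPM under ALL. At an unadjusted p under 0.05, 4 of the 5 were lower (median -0.32), against the same 10.8% of all genes. Of 2 cardiomyocyte genes tested 1 was higher (Tnnt2, 1.07), and the only adipocyte gene tested was higher (Fabp4, a fatty acid carrier, 1.82). None of 6 leukocyte genes was called by edgeR or DESeq2, 1 being lower at an unadjusted p under 0.05. In WT VSMC under HG + FFA 3 of 10 proliferation genes were higher, where 0.319% of all genes were higher. These were Mki67 (1.11), Top2a (0.89) and Ccnb1 (0.94), with sums of the list of 126 to 220 FPM. No gene of the other marker lists was called there by edgeR. In EC under HG + FFA, 2 of 5 fibroblast genes were lower (Col1a1, -0.73; Col3a1, -0.43), where 1.88% of all genes were lower, with sums of 1640 to 18400 FPM in Control and 810 to 18000 FPM under HG + FFA. Higher there, as were 1.64% of all genes, were 1 of 9 endothelial genes tested (Emcn, 0.37), with sums of 54.4 to 4230 FPM in Control and 64.2 to 5000 FPM under HG + FFA, and Fabp4 (1.51). At an unadjusted p under 0.05, 2 of the 9 endothelial genes were higher and 2 lower (median 0.01). By that measure 4 of 10 proliferation genes were higher (median 0.20) and 3 of 5 fibroblast genes lower (median -0.29). The shares of all genes by that measure were not determined. In KO VSMC Fabp4 was the one marker edgeR called, higher under HG + FFA (1.01) and ALL (1.39), where 0.336% and 0.279% of all genes were higher. DESeq2 also called 1 fibroblast gene under HG + FFA and 1 smooth muscle gene under ALL, with 246 and 259 of all 17538 genes. At an unadjusted p under 0.05, 3 of 5 fibroblast genes were lower under ALL (median -0.37), where 5.63% of all genes were. By that measure 3 of 10 proliferation genes were higher under HG + FFA (median 0.36), where 6.36% of all genes were. In EC under ALL edgeR called Emcn (0.40), Fabp4 (1.61) and the replication gene Mcm2 (0.30) higher and Col3a1 (-0.48) lower. There 1.14% of all genes were higher and 2.04% lower. At an unadjusted p under 0.05, 1 of 9 endothelial genes was higher and 3 were lower (median -0.06). By that measure 8 of 10 proliferation genes were higher (median 0.29), where 6.83% of all genes were higher. Of 5 fibroblast genes 3 were lower by it (median -0.33), and the share of all genes lower was not determined. The part of these changes in the sterol gene result was not tested.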

How the data were processed

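The authors aligned poly(A) RNA-Seq reads to the mouse genome with HISAT2 2.1.0 (submitters' notes), assigned them to exons of Ensembl genes with featureCounts (option -M, which keeps reads with several alignments) and deposited read counts per gene and library without normalization. Strand setting, handling of read pairs and fractional counting are not given in the sources used here. Every value here starts from these deposited counts of 69 libraries. Depth per library is given in the report, and FPM intervals cover no more than the spread between libraries.

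The tools were edgeR 4.0.16 and DESeq2 1.42.0 under R 4.3.3, with Python 3.11.15, matplotlib 3.10.9 and BLAST 2.17.0. Genes were filtered by filterByExpr and normalized by TMM, and edgeR's quasi-likelihood test was fitted over all genes for each cell type with condition and set number as terms. Differences between genotypes or cell types came from joint fits. The FDR is the p-value after Benjamini-Hochberg adjustment across every gene in the fit. A call means an FDR under 0.05, and "higher" and "lower" refer to the first group named. A pseudocount of 0.1 FPM was added before log2 ratios of single libraries. FPKM used the merged exon length in GENCODE (GRCm39), which is not the release the authors counted on.

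Libraries were paired by the set numbers in the sample titles, described in the study's methods as cells of 1 animal and passage treated together. Deviations from group means over 14477 genes correlated within sets at a mean r of 0.77 (WT VSMC), 0.749 (KO VSMC) and 0.80 (EC), the lowest pair at 0.504. No libraries of the same cell type and treatment were alike: the smallest chi-square per gene among 207 pairs within groups was 45.9. This check did not cover pairs from different groups.

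All 28 members are named, and values per library are given for the 12 with the smallest FDR among those called in a stressor comparison. The members and lists were chosen with earlier results of these data known. Promoter stretches were matched to GRCm39 and chosen after the calls were seen. The fits were tested on simulated data. Alternatives were DESeq2, DESeq2's size factors in edgeR, no low-count filter, no set block, only the groups compared, 1 VSMC set at a time left out, the animal in place of the set, complete EC sets only, EC without sets 15 and 16, the study's criteria for differential expression and, chosen after the data were seen, EC without sets 9, 11 and 13, whose mean Pecam1 was under 50 FPM, and without sets 9 and 10, whose animals also gave WT VSMC. Some genes of the pathway are not reported here.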

Additional observations from a re-analysis of the deposited data

Results flagged for a closer look

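The difference between cell types in the effect of ALL stressors on Sqle stood out because its own test passed the threshold: -0.83 ± 0.17 (SE) for EC minus WT VSMC (edgeR FDR 0.00751). Sqle was higher in 4 of 4 WT VSMC sets and in 5 of 9 EC sets. The call was lost without WT VSMC set 2 (edgeR FDR 0.0708) or set 4 (edgeR FDR 0.146). Cell type and batch cannot be told apart here.

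Mvk, mevalonate kinase, was marked under AII + NA because every set of WT VSMC was above its Control library (mean log2 ratio 0.21) and every set of KO VSMC below it (mean -0.28). In the joint edgeR fit the genotype difference of Mvk was 0.51 ± 0.17 (SE, edgeR FDR 0.395) and missed the threshold. The log2 ratios were 0.17, 0.05, 0.24 and 0.38 in WT VSMC sets 1 to 4. In KO VSMC sets 5 to 8 they were -0.04, -0.05, -0.48 and -0.56, so that some signs rest on ratios near 0. A split of this kind by sign was looked for in each member and stressor. How often all genes show such a split was not determined.

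Single libraries far from the rest of their group were looked for in all 28 members, in 308 groups of 4 to 10 libraries, as log2 FPM and as FPM. The limit for extreme values, which by chance marks about 1 in 20 groups, was passed in 9 groups (2.92%) as log2 FPM and in 18 (5.84%) as FPM, 6 of them on both scales, and in none of 11 groups for the mean log2 FPM of the 28 genes. EC set 18 was high in Hsd17b7 in every condition, with 126 FPM in Control, 188 FPM under HG + FFA, 155 FPM under AII + NA and 152 FPM under ALL, against at most 55.3 FPM in any other EC library. The same set was high in Soat1, with 143 FPM in Control, 152 FPM under AII + NA and 129 FPM under ALL. EC set 17 was high in Cyp51, with 111 FPM under HG + FFA and 116 FPM under ALL. EC set 11 was low in Insig2 under ALL (38.3 FPM) and high in Ebp under ALL (60.0 FPM) and in Npc1 under AII + NA (118 FPM).

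KO VSMC set 5, which kept Egfr transcript, was low in Insig1 under HG + FFA, with 27.5 FPM against 90.5 to 103 FPM in the other KO sets, and under AII + NA, with 30.3 FPM against 67.6 to 77.9 FPM. KO set 6 was high in Tm7sf2 under HG + FFA (29.8 FPM) and in Lbr under AII + NA (22.7 FPM). KO set 7 was high in Ggps1 under HG + FFA (52.9 FPM) and low in Soat1 in Control (40.4 FPM), and KO set 8 was low in Dhcr7 in Control (4.49 FPM). In WT VSMC, set 4 was low in Lss under AII + NA (11.8 FPM) and set 3 high in Scap under HG + FFA (189 FPM).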

How the results depend on the processing

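None of the called members changed its direction under any alternative that was run. Under ALL stressors in WT VSMC 15 members were called. Without the replicate block, that is without the pairing by set, 0 were called (the log2FC of the 15 stayed above 0), 8 to 13 with a set left out, of which 8 to 10 were among the 15, and 6 by the study's criteria for differential expression. The stressor calls in EC and the cell type difference were lost with it too: without the block 0 members were called for EC under HG + FFA (2 with the block) and 0 for the cell type difference under ALL (1 with the block). The 2 EC calls also fell to 0 with only the 2 groups compared, the animal as the block, complete sets only, without sets 15 and 16, without EC sets 9, 11 and 13, and by the study's criteria.

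DESeq2 called 4 members for WT VSMC under HG + FFA, 1 for AII + NA, 1 for ALL against HG + FFA, 1 for the genotype difference under ALL, 2 for the cell type difference under ALL, 1 for KO against WT VSMC Control and 5 for EC against WT VSMC Control (edgeR 0, 0, 0, 0, 1, 0 and 3). Of all genes it called 294, 169 and 224 of 16905 in the WT VSMC comparisons. It called 58 of 18339 for the genotype difference and 180 of 19362 for the cell type difference. For KO and for EC against WT VSMC Control it called 343 of 16089 and 3603 of 17115. Without a low-count filter the counts were 18 for WT VSMC under HG + FFA, 3 for AII + NA, 1 for ALL against HG + FFA, 1 and 1 for KO VSMC under HG + FFA and ALL, 2 for EC under ALL, 3, 2 and 5 for the genotype differences under HG + FFA, AII + NA and ALL, and 2 and 4 for the cell type differences under HG + FFA and ALL. Without the filter the share of all genes was determined for WT VSMC under ALL alone, where 21 members and 2.75% of all 33583 genes were higher. The other counts stand without such a share and are not read as results about the members. Their cause was not tested. With only the 2 groups compared 3 members were called for WT VSMC under HG + FFA and 1 for AII + NA. With a set left out the counts were 0 to 1 for WT VSMC under HG + FFA (1 without set 2 or set 4), 0 to 1 for KO VSMC under HG + FFA and for KO against WT VSMC Control (1 without set 5), 0 to 1 for the cell type difference under ALL (Sqle, lost without set 2 or set 4) and 1 to 2 for EC against WT VSMC Control (1 without set 2 or set 4), which stayed at 3 without EC set 18. Without EC sets 9, 11 and 13, an alternative chosen after the data were seen, 2 members were called for the cell type difference under ALL and 9 for EC against WT VSMC Control. Without EC sets 9 and 10, chosen likewise, the counts were 1 and 2. Of the single members called under any setting, 296 values stayed on their side of the threshold, 65 fell below it and 51 rose above it.

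With 4 sets per genotype, differences between genotypes are the least precise values here, and a member that missed the threshold is not shown to be equal. KO VSMC had 3 libraries under ALL.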
